A study of Rattus norvegicus with 16 samples.

Results

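The 10 genes described here in rat disc libraries comprise 5 of the erythroid lineage (Hba-a2, Hba-a3, Hbb, Alas2 and Ahsp) and 5 of the granulocyte lineage (S100a8, S100a9, Camp, Ngp and Lcn2). They were chosen by name, and all 10 were listed in each of the 4 groups, out of 13596 genes listed in every group and 14930 listed in any. The libraries came from male Sprague-Dawley rats that were 8 weeks old at surgery, when the L4–5 and L5–6 intervertebral discs (IVDs) were stabbed once with a 27G needle. After 2 weeks (rats 1 to 4) or 8 weeks (rats 5 to 8), the 2 stabbed discs of each rat were pooled as the LDP (lumbar disc puncture) library, and the 2 uninjured discs at L2–3 and L3–4 of the same rat as the CON library. Single-cell RNA was sequenced from the 3′ end on the 10x Genomics platform, which counts molecules by their unique molecular identifier (UMI). The groups were therefore CON and LDP at 2 weeks and at 8 weeks, with 4 libraries in each, and all rats carried punctured discs, so no library came from an animal without surgery. The authors clustered each group separately and named classes of IVD, endothelial, myeloid and lymphoid cells, and the cells of the clusters without such a name are called unnamed below. The deposited labels Chondrocyte, Macrophage and Immune cells were read here as the IVD, myeloid and lymphoid classes.

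Red blood cells arise in bone marrow from erythroblasts, which fill with haemoglobin, a tetramer of alpha-globin and beta-globin chains that each hold a haem group. Neutrophil granulocytes also mature in the marrow, where their precursors load granules with antimicrobial proteins before the mature cell leaves for the blood. The inner disc holds no blood vessels, and vertebral bone marrow lies close to it, beyond the endplates.

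The 16 libraries held 149272 cells, from 2221 to 15918 per library, with 17759809 to 85025591 UMIs in all per library and 3861 to 8092 in the median cell. Levels are given as the mean counts per 1000000 (CPM) over all cells of a library, and tests were run on log2(mean CPM + 1). Any pair of libraries shared at most 75 cell barcodes and, in another pair, at most 0.720% of the smaller library. Lymphoid cells made up 0 to 0.772% of the CON libraries at 2 weeks and 0, 0.157, 18.8 and 11.7% of the LDP libraries of rats 1 to 4, while at 8 weeks they ranged from 0.109% to 20.5%. No test used single cells as units. Linear models fitted by limma pooled the spread of all 16 libraries, with the rat as block for LDP against CON. Fits between times had no rat term, so the 2 libraries of a rat counted as independent in their spread. Exact tests of cell shares permuted the libraries of a time point or flipped signs by rat, and those of ratios and correlations ran over rats.

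The haemoglobin genes sit in 2 clusters of near copies, between which reads may not be told apart. The 100 bases before each gene start are shown for the 3 haemoglobin members, for Hba-a1, an alpha-globin copy that was not listed in any group, and for S100a9 as the granulocyte counterpart, because the members of each lineage varied together across the libraries. Sequences are from RefSeq on the GRCr8 build, 5′ to 3′ on the minus strand, at chr10:15829139-15829238 (Hba-a2), chr10:15842581-15842680 (Hba-a1), chr10:15816944-15817043 (Hba-a3), chr1:167663722-167663821 (Hbb) and chr2:178490623-178490722 (S100a9). Capitals mark 4 short motifs, searched on both strands and spelled out after the sequences.
Hba-a2: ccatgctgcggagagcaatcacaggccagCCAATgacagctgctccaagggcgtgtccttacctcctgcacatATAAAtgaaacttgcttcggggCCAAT
Hba-a1: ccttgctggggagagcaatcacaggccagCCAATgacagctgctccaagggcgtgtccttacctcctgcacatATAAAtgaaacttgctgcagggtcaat
Hba-a3: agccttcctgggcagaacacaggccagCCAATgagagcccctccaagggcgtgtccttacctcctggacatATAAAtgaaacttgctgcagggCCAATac
Hbb: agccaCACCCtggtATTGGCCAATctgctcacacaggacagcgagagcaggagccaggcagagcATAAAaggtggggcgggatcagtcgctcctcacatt
S100a9: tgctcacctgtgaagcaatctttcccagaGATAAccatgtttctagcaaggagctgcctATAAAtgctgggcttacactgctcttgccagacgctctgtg

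The Hba-a2 and Hba-a1 windows were identical at 95 of 100 positions, and those of Hba-a2 and Hba-a3 at 82.7% of 98. Promoter windows were found for 8 of the 10 members. CCAAT, which in Hbb directly follows its own reverse complement ATTGG, was in 3 of the 8, the haemoglobin genes, against 17.1% of 33469 windows of the same length. ATAAA was in 7 of the 8 (18.4% of all windows), among them all 4 granulocyte members matched, CACCC was in 3 (25.6% of all) and GATAA in 1 (9.15% of all). These are matches of letters only. For the alpha-globin copies the data bear on the count itself: of 63432 cells with an Hba-a2 value, only 37.8% held a whole number of UMIs (within 0.02) and 61.9% held a whole number plus 0.5, whereas Hba-a3, Hbb, Alas2 and Ahsp were whole in every cell. Hba-a2 is thus reported as uncertain between alpha-globin copies. Hbb is a minor part of the beta-globin signal: of the summed CPM of Hbb and its neighbour LOC100134871, which RefSeq lists as Hbbl1, Hbb gave 3.25 to 12.7% per library.

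Both lineages were present as a small set of cells with very high levels over a low level in most other cells. Cells were sorted by the share of their UMIs that came from the 3 haemoglobin genes. This share leaves out LOC100134871, the larger part of the beta-globin signal, as do all haemoglobin shares and haemoglobin UMIs below. The share was 0 in 84644 cells and up to 0.1% in 56936. Only 124 cells lay between 1 and 2%, but 399 lay between 10 and 20% and 246 at 20% or more. For S100a8 and S100a9 together the share was 0 in 138275 cells, the fewest cells (46) lay between 0.5 and 1%, and 294 lay at 20% or more. Cells were called erythroid co-expressing where haemoglobin made up at least 1% of UMIs and a UMI of Alas2 or Ahsp was present (1032 cells), and granulocyte co-expressing where S100a8 and S100a9 made up at least 1% and a UMI of Camp, Ngp or Lcn2 was present (681 cells). Only 2 cells met both rules. Among cells with the second gene, 120 and 64 of the 2 kinds lay near the limit, between 0.5 and 2%, and without asking for the second gene the numbers at 1% or more would be 1167 and 713.

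**Figure D1:**
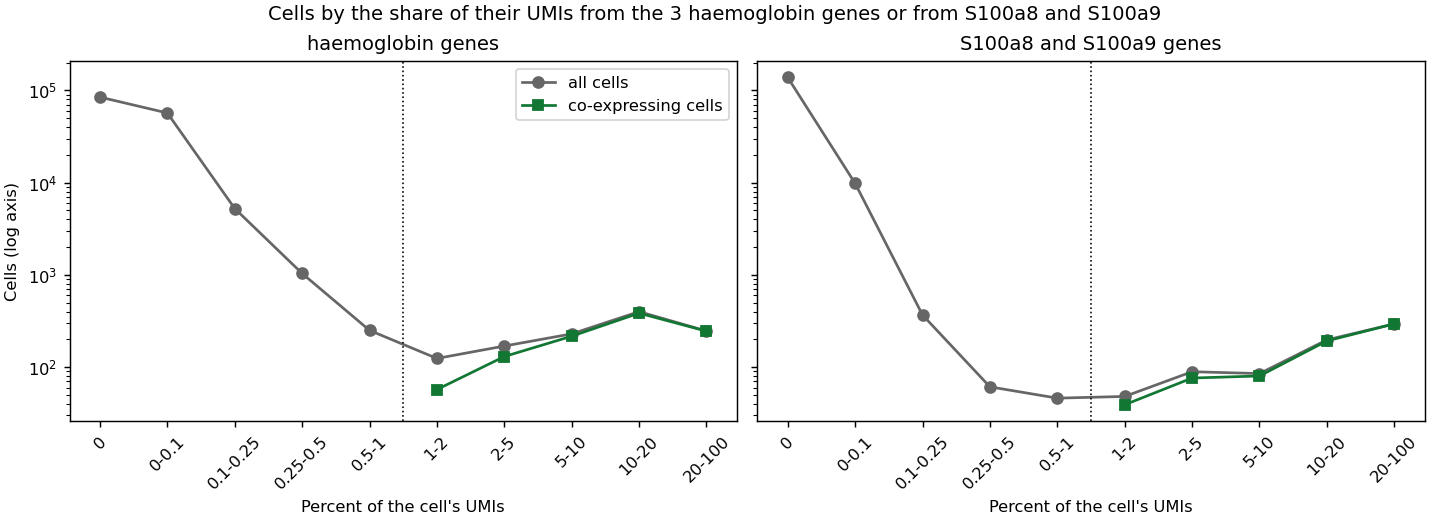
Number of cells (log axis) by the percent of a cell's UMIs from Hba-a2, Hba-a3 and Hbb (left) or from S100a8 and S100a9 (right), for all 149272 cells (circles) and for the co-expressing cells (squares); the dotted line marks the 1% limit. The fewest cells, 124 for haemoglobin (1 to 2%) and 46 for S100a8 and S100a9 (0.5 to 1%), lie between the low and the high shares.

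The members were high in the erythroid co-expressing cells by the rule that chose them, and many other erythroid genes were high there too. In the 9 libraries with at least 5 of them, Hba-a2 averaged 111008 ± 38840 CPM (SD over libraries) against 355 in the other cells, Hbb 9357 against 29.1 and Hba-a3 917 against 3.42. Alas2, the first enzyme of haem synthesis in erythroid cells, stood at 602 CPM against 1.04, and Ahsp, the chaperone of free alpha-globin, at 3931 ± 3225 against 5.58. Haemoglobin and a UMI of Alas2 or Ahsp were used to choose these cells, so these values are a description with no test. Of 48 other erythroid genes listed, 37 stood at least 10-fold above the other cells in their mean over libraries, as did 1.33% of all 14920 genes outside the members. Higher by any amount in every library that listed them were 14 (0.422% of all), some of them listed in fewer than 9. Among those with the highest levels were Car2 (carbonic anhydrase, 2364 CPM), Prdx2 (a peroxide-removing enzyme abundant in red cells, 1625), Slc4a1 (the band 3 anion exchanger, 1150), Tfrc (the transferrin receptor that brings in iron, 761) and Glrx5 (iron-sulphur cluster assembly, 569). Tfrc, Glrx5 and Prdx2 were under 10-fold (5.81, 6.35 and 7.18), since the other cells held 131, 89.7 and 226 CPM of them. The defining marker Klf1, an erythroid transcription factor, was at 216 CPM. Klf1 and Slc4a1 were each higher than in the other cells in 8 of the 9 libraries. Of the erythroid members Ahsp varied most among libraries relative to its mean, from 246 to 7562 CPM. The levels also differed by class. Over pooled cells, IVD-class and unnamed co-expressing cells averaged 944 and 12094.5 CPM of Ahsp, 365 and 1073 of Alas2 and 78752.5 and 169681 of Hba-a2. Hbb stood at 6262 and 13112 CPM, and Hba-a3 went the other way, at 887 and 313.

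The granulocyte co-expressing cells were described in 7 libraries with at least 5 such cells, and all 5 granulocyte members took part in the rule that chose them, so their values there are a description. S100a8 and S100a9, the subunits of the calcium-binding protein calprotectin, averaged 87663 ± 25655 and 90721 CPM there, against 31.7 and 39.0 in the other cells. The granule genes followed: Camp, the cathelicidin precursor, at 15138 CPM against 5.69, Ngp, a neutrophil granule protein, at 14328 against 3.18, and Lcn2, the iron-siderophore binding lipocalin, at 6280 against 29.8. Of 46 other granulocyte genes, 36 stood at least 10-fold above the other cells in their mean, as did 2.89% of all genes outside the members. Higher by any amount in every library that listed them were 33 (4.71% of all), some of them listed in fewer than 7. The 6 highest were the neutrophil defensins RatNP-3b (29022 CPM), Np4 (11742) and Defa5 (8908), Anxa1, an anti-inflammatory phospholipid-binding protein (8888, 4.03-fold), Lyz2 (lysozyme, 6154) and Mmp8 (neutrophil collagenase, 3631). Mpo and Elane stood far below these 6, at 161 and 63.9 CPM, yet above the other cells (2.56 and 5.04 CPM). Both were listed in 6 of the 7 libraries. Ltf was at 0 in the 3 of these libraries that listed it, and Hdc was at 0 in all 7. The macrophage markers Csf1r and C1qa had a UMI in 1.44% of the granulocyte co-expressing cells in the myeloid class, against 48.6% and 47.5% of its other cells, and Lyz2 in 99.5% against 77.7%.

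The classes placed these cells differently at the 2 time points. At 2 weeks, 208 of 258 granulocyte co-expressing cells were in the myeloid class, where they made up 18.0% of that class, 27 were in the IVD class and 20 were unnamed. At 8 weeks 410 of 423 were unnamed and 1 was myeloid. These counts pool libraries: 241 of the 423 came from LDP rat 7 and 141 from CON rat 5. All 108 such cells in CON at 2 weeks came from rat 1. The mean S100a8 level of the myeloid class was 4796 (CON) and 10034 (LDP) CPM at 2 weeks and 128 and 70.5 CPM at 8 weeks, while in the unnamed cells it was 3669 and 23513 CPM at 8 weeks. Libraries differed widely around these means. Myeloid values ran from 0 to 19184 CPM in CON and from 0 to 25449 in LDP at 2 weeks. Unnamed cells ran from 269 to 13047 CPM in CON and from 1665 to 70089 in LDP at 8 weeks. Without the co-expressing cells the myeloid class held 31.1, 80.2, 103 and 70.7 CPM in the order CON and LDP at 2 weeks, CON and LDP at 8 weeks. The paper's methods repeat the clustering for each group, while its introduction says that the scheme was kept the same for control and degenerated discs. A class of one name may thus not have the same boundaries in every group. The part of such boundaries in any difference between the groups of a class was not tested.

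Erythroid co-expressing cells were split mainly between the IVD class (451 cells) and the unnamed cells (465), with 72 lymphoid, 28 endothelial and 16 myeloid. These counts pool all libraries, and 401 of the 1032 cells came from CON rat 5. By group the IVD class held 79.4% (CON) and 42.9% (LDP) of them at 2 weeks and 35.8% and 61.6% at 8 weeks, and the unnamed cells 9.52, 41.2, 55.4 and 30.4%. Those in the IVD class also had UMIs of the disc genes, at lower median levels over pooled cells than the other IVD cells: 92.9% had a UMI of Acan, the large disc proteoglycan, against 94.7% of the other IVD cells, and 82.7% had one of Sox9, against 83.7%. Their median Acan level was 1429 CPM against 2565, that of Col2a1, the main cartilage collagen, 517 against 1323 and that of Comp, a cartilage matrix protein, 4095 against 6138. They had a median of 8373 UMIs and 1859 genes, against 6040 UMIs and 1822 genes, and a median haemoglobin share of 7.28%. The unnamed ones had 2461 UMIs and 636 genes, against 3554 UMIs and 1341 genes in the other unnamed cells, and a haemoglobin share of 18.7%, Acan in 13.8% and a ribosomal share of 4.04%. The authors' filter kept only cells with at least 500 genes, so any cells below it are missing from the counts and shares given here. Lymphoid co-expressing cells had more UMIs than the other cells of their class, a median of 3458 against 1801. The rule asks for a UMI of Alas2 or Ahsp, which a deeper cell meets more easily, so it can itself raise these medians. Its part in them was not tested. No doublet caller was run, and whether droplets with more than 1 cell gave these profiles was not tested.

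Levels of the erythroid genes varied widely between libraries of a group, for Hba-a2 most in LDP at 2 weeks on the log2 scale and most in CON at 8 weeks in CPM. Hba-a2 stood at 545, 16.3, 244 and 53.6 CPM in CON rats 1 to 4 and at 1.57, 65.2, 1119 and 2648 CPM in LDP. At 8 weeks it stood at 7135, 2475, 155 and 43.2 CPM in CON rats 5 to 8 and at 2344, 240, 411 and 99.4 CPM in LDP. Rats 5 and 6 were high in CON and rats 3, 4 and 5 in LDP, and the CON and LDP ranges overlapped at both times. Hbb followed the same order of CON libraries within each time point, with 42.8, 0.8004, 27.3 and 8.54 CPM at 2 weeks and 465, 151, 8.38 and 2.58 CPM at 8 weeks. In LDP it was at 0.245, 9.10, 148 and 281 CPM, and then at 135, 9.16, 21.7 and 5.18 CPM. Hba-a3, a less abundant alpha-globin, ranged from 0 to 35.4 CPM, and was listed at 0 in LDP rat 1. Alas2 ranged from 0 to 40.4 CPM and Ahsp from 0.155 to 347 CPM. For all 5 genes CON rat 5 was the highest of the 16 libraries and LDP rat 1 was the lowest, with no co-expressing cell there.

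Granulocyte genes were near 0 in CON rats 2 to 4 and in LDP rat 1. S100a8 stood at 575, 0.168, 0.144 and 0.235 CPM in CON and at 0.0883, 4.33, 387 and 488 CPM in LDP at 2 weeks. At 8 weeks the levels were 1315, 23.8, 5.30 and 56.4 CPM in CON and 311, 472, 2876 and 16.5 CPM in LDP. S100a9 followed it closely, between 0.0330 and 2945 CPM, with LDP rat 7 highest for both. Camp ranged from 0.476 to 474 CPM and Ngp from 0.0931 to 330 CPM. Lcn2 had a floor that the others lacked: it stood at 66.4, 6.86, 3.13 and 6.77 CPM in CON and 13.2, 14.2, 44.0 and 46.5 CPM in LDP at 2 weeks, and at 102, 17.3, 28.7 and 16.1 CPM and 28.05, 58.1, 313 and 48.7 CPM at 8 weeks.

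**Figure D2:**
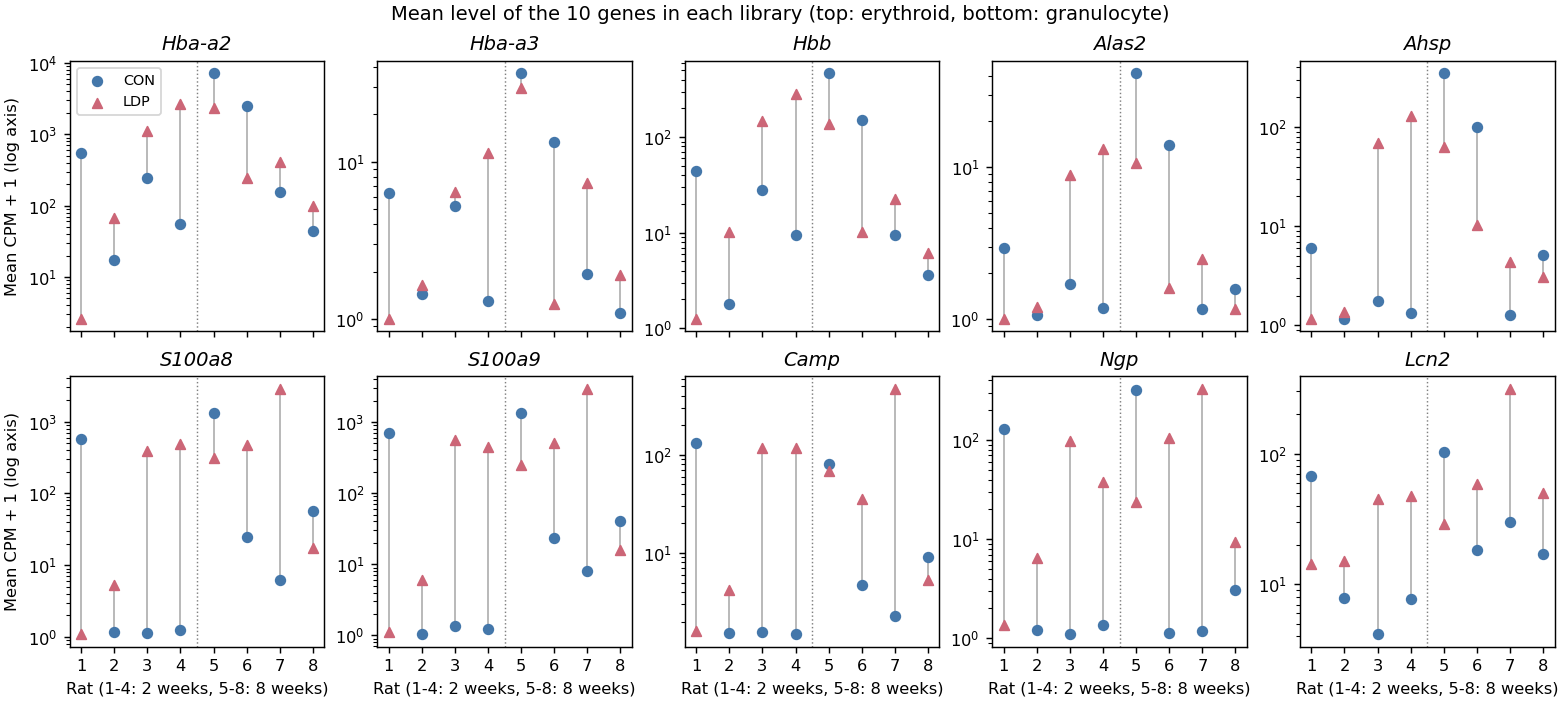
Mean CPM + 1 (log axis) of each of the 10 genes in the 16 libraries, by rat, with CON as circles, LDP as triangles and a line joining the libraries of a rat; the dotted line parts rats 1 to 4 (2 weeks) from rats 5 to 8 (8 weeks). In rats 2, 3, 4 and 7 the LDP triangle lies above the CON circle for every gene, in rats 1 and 5 below it, and in rat 6 above it for granulocyte genes only, and in rat 8 above it for 5 genes and below it for the other 5.

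The comparison of LDP with CON, fitted by limma over 12199 genes with the rat as block, asked whether puncture moved these genes. None of the 10 members passed an adjusted p of 0.05 at 2 weeks or at 8 weeks. This has to be read against the background, since 0% of all genes passed in either direction at 2 weeks, and 0.0082% (1 gene) as higher and 0% as lower at 8 weeks. At an unadjusted p under 0.05 no member was counted in either comparison, against 2.16% of genes higher and 6.89% lower at 2 weeks, and 2.01% and 7.15% at 8 weeks. Fitted differences (LDP minus CON, log2) were above 0 for all 10 at 2 weeks, with a median of 1.11 for erythroid and 1.91 for granulocyte members, against −0.06 for all genes. At 8 weeks the erythroid members lay below 0 (median −0.90) and the granulocyte members above (median 2.32), with all genes at −0.10.

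The intervals of these differences were wide. For Hba-a2 the difference was 0.50 (SE 1.77) at 2 weeks, with a 95% interval from −3.48 to 4.48 and an adjusted p of 0.938 by limma. At 8 weeks it was −0.59, from −4.57 to 3.38. Neither value tells a change of several-fold from none. Ahsp had the largest erythroid difference at 2 weeks, 2.43 (SE 1.37, adjusted p 0.634 by limma). For S100a8 the values were 2.54 (SE 2.79, adjusted p 0.783 by limma) at 2 weeks and 2.32 (adjusted p 0.796) at 8 weeks, and Ngp had the largest at 8 weeks, 3.14 (SE 2.26, adjusted p 0.672). Lcn2 had the narrowest interval of the granulocyte members, 1.19 (−0.97 to 3.34) at 2 weeks and 1.20 (−0.95 to 3.36) at 8 weeks. The sign of the fitted difference turned for the haemoglobin genes when 1 rat was left out. At 2 weeks Hba-a2 stood at −1.20, Hba-a3 at −0.73 and Hbb at −0.09 without rat 4, and Hba-a2 at −0.07 without rat 3, and at 8 weeks Hba-a2 stood at 0.33, Hba-a3 at 0.80 and Hbb at 0.10 without rat 6. The granulocyte differences kept their sign without each rat in turn but not their size. S100a8 ranged from 0.52 (without rat 4) to 6.41 (without rat 1) at 2 weeks and from 0.15 (without rat 7) to 3.79 (without rat 5) at 8 weeks, and Ngp from 0.21 (without rat 3) to 4.56 (without rat 1) and from 1.47 (without rat 7) to 5.44 (without rat 5). The difference between the LDP effects of the 2 time points passed for no member either, with 0% of all genes called in each direction and 0.287% and 0.525% at an unadjusted p under 0.05, which no member reached.

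Of the other erythroid genes on a wider list, 39 were fitted, and of other granulocyte genes 32. No gene of either list passed in the comparison of LDP with CON at 2 or 8 weeks, nor did any of 14 genes of B-cell precursors, another marrow cell type. Median differences at 2 weeks were 0.31 for erythroid, 0.38 for granulocyte and 1.17 for B-cell precursor genes. At 8 weeks they were −0.51, 0.60 and 0.89. At an unadjusted p under 0.05, 2 of the 39 erythroid genes were lower at 2 weeks (6.89% of all genes) and 7 at 8 weeks (7.15% of all). None was counted as higher, and 3 of the 39 had a difference above 0 at 8 weeks. Of the 32 granulocyte genes 1 was higher at 2 weeks (2.16% of all genes) and 2 at 8 weeks (2.01% of all), with none lower. Of the 14 B-cell precursor genes 2 were higher at 8 weeks, against the same 2.01%. In the difference between the LDP effects of the time points, 9 of the 39 erythroid genes were lower at an unadjusted p under 0.05 (0.525% of all genes). None of them passed the adjusted threshold. The summed level of the 14 B-cell precursor genes was 224, 36.9, 37.8 and 36.0 CPM in CON and 17.9, 34.0, 1246 and 618 CPM in LDP at 2 weeks. At 8 weeks it was 412, 1260, 42.1 and 25.9 CPM in CON and 228, 473, 300 and 145 CPM in LDP. In 7 of 8 rats, all but rat 2, the library with the higher mean erythroid level also had the higher B-cell precursor level. Their part in the erythroid and granulocyte levels was not tested.

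Within a rat the members mostly differed in 1 direction. Members at least 2-fold apart on the CPM + 1 scale were counted in each rat, beside all genes. In rat 1 all 10 were lower in LDP (7.13% of all genes were lower and 0.254% higher). In rat 2, 6 were higher (0.5% of all, with 0.959% lower), in rat 3, 9 (6.74%, with 2.21% lower) and in rat 4 all 10 (5.69%, with 9.77% lower). At 8 weeks 8 were lower in rat 5 (12.3% lower, 1.38% higher), 10 higher in rat 7 (4.27% higher, 1.76% lower), and in rat 8, 3 were higher and 2 lower (1.09% and 1.47%). Rat 6 parted the lineages, with the 5 granulocyte genes higher and the 5 erythroid genes lower in LDP (3.34% and 3.28% of all genes). There S100a8 was at 23.8 CPM in CON and 472 in LDP, a log2 difference of 4.25, and Hba-a2 at 2475 and 240 CPM, a difference of −3.36. These are pairs of libraries with no replicate within a rat.

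Numbers of co-expressing cells followed the same libraries. Erythroid co-expressing cells were 0.407, 0, 0.0891 and 0.0224% of cells in CON and 0, 0.0565, 0.826 and 1.85% in LDP at 2 weeks. At 8 weeks they were 4.90, 1.28, 0.0639 and 0.0310% in CON and 1.119, 0.0900, 0.286 and 0.0442% in LDP. The highest share, in CON rat 5, came from 401 of 8176 cells, with an exact Clopper-Pearson 95% interval of 4.45 to 5.395%. Granulocyte co-expressing cells were 0.916, 0, 0 and 0% in CON and 0, 0.0126, 0.637 and 0.451% in LDP at 2 weeks, and 1.72, 0.0258, 0.0213 and 0.0465% in CON and 0.334, 0.405, 2.38 and 0.0332% in LDP at 8 weeks. A count of 0 in CON rat 2, with 3896 cells, allows a share of up to 0.0770%, and in LDP rat 1, with 8709 cells, of up to 0.0344%, taking 3 counts as the limit. The exact intervals drawn for these libraries reach 0.0946% and 0.0423%. Intervals and these limits cover counting error only.

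**Figure D3:**
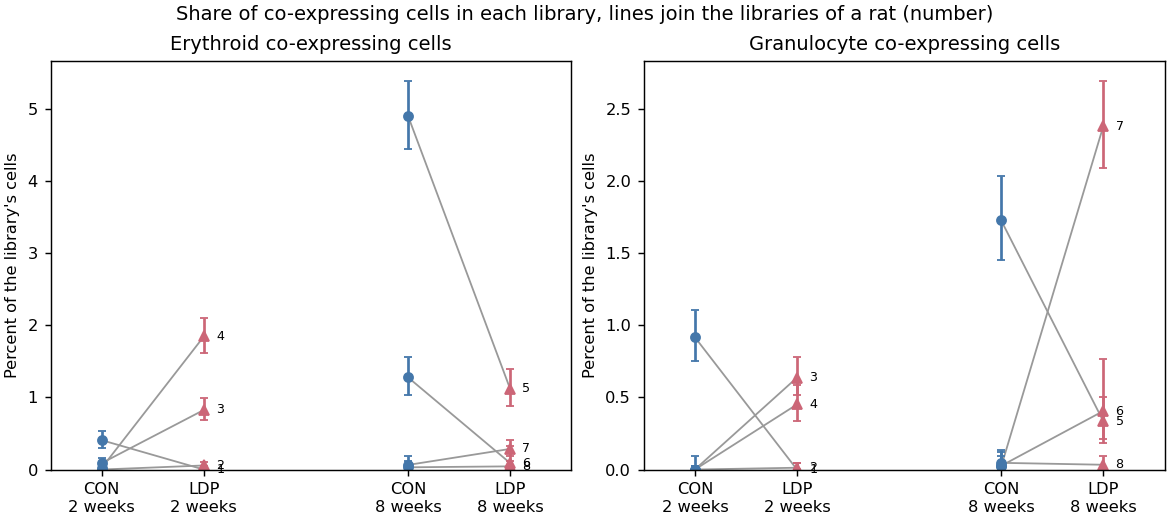
Percent of each library's cells that were erythroid (left) or granulocyte (right) co-expressing, with exact 95% Clopper-Pearson intervals for counting error; circles are CON, triangles LDP, and lines join the libraries of a rat, whose number stands at the right. Lines cross within both time points: the erythroid share is 0.0224% in CON and 1.85% in LDP of rat 4, and 4.90% in CON and 1.119% in LDP of rat 5.

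The groups did not separate by these shares. At 2 weeks the erythroid share was 0.130 ± 0.189% in CON and 0.682 ± 0.862% in LDP (SD, n = 4), higher in 3 of 4 rats, with a two-sided exact permutation p of 0.343. At 8 weeks it was 1.57 ± 2.30% and 0.385 ± 0.501%, higher in 2 of 4 rats, with an exact permutation p of 0.514. For granulocyte cells the shares were 0.229 ± 0.458% and 0.275 ± 0.320% at 2 weeks (exact permutation p = 0.8286) and 0.455 ± 0.847% and 0.788 ± 1.07% at 8 weeks (exact permutation p = 0.486). Benjamini-Hochberg values over the 4 tests were 0.686 to 0.8286 for these exact permutation p. The smallest p that 4 against 4 allows is 0.0286. Pairing by rat, the exact sign-flip p were 0.375 and 0.5 for erythroid and 0.875 and 0.750 for granulocyte shares, and no set of signs over 4 rats can reach 0.05. The difference at 2 weeks for granulocyte cells, 0.0460 percentage points, was 0.367 without rat 1, −0.151 without rat 3 and −0.0889 without rat 4. At 8 weeks the difference of 0.333 was −0.341 without rat 7 and 0.908 without rat 5. The erythroid difference of 0.552 at 2 weeks was 0.129 without rat 4 and 0.872 without rat 1, and that of −1.18 at 8 weeks was −0.318 without rat 5.

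Outside the co-expressing cells, Hba-a2 was found in most classes of a library, and listed at 0 in the myeloid (31) and lymphoid (7) cells of CON rat 8, the 19 myeloid cells of LDP rat 8 and the 23 unnamed cells of LDP rat 1. In CON rat 5, where Hba-a2 had a UMI in 99.04% of the other cells, it stood at 819 CPM in IVD, 1003 in myeloid and 1714 in lymphoid cells. In CON rat 8, with 1.27% of other cells, it stood at 7.04 CPM in IVD cells. The other cells held 269, 16.3, 193 and 34.6 CPM in CON and 1.57, 23.3, 186 and 631 CPM in LDP at 2 weeks. At 8 weeks they held 927, 379, 41.7 and 7.17 CPM in CON and 532, 44.5, 57.4 and 37.4 CPM in LDP. Co-expressing cells, at most 4.90% of a library, gave 57.9 to 87.9% of its haemoglobin UMIs in 12 of the 14 libraries that had any, and 27.4% and 40.8% in CON rats 3 and 4. In these 2 libraries 78 and 7 cells held at least 1% haemoglobin, but only 12 and 3 had a UMI of Alas2 or Ahsp. The rest count among the other cells, so the values of the other cells include some high shares. For S100a8 and S100a9 the granulocyte co-expressing cells gave 82.6 to 99.5% in 11 of 12 libraries and 38.5% in LDP rat 2. Whether a UMI of Hba-a2 in an IVD cell was expressed by that cell was not tested, and it is not read as such here.

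Hbb, the minor part of the beta-globin signal, was set against Hba-a2 in both sets of cells of a library. Hbb UMIs per 100 Hba-a2 UMIs in the other cells were 0.853 to 1.56 times the value in the co-expressing cells of the same library, with a median of 1.01 over 14 libraries. In the other cells the ratio overlapped between the times. It was 6.37 in CON rat 2 at 2 weeks, a library without a co-expressing cell, and 6.75 in CON rat 5 at 8 weeks. In co-expressing cells the ratio was 8.65 to 17.7 in the 6 libraries of 2 weeks that had any and 3.18 to 6.64 in the 8 libraries of 8 weeks, so the ranges did not overlap, although both ends came from few cells, 3 in CON rat 4 and 2 in LDP rat 6. In libraries with at least 5 such cells it was 8.65 to 15.0 in 5 libraries and 5.30 to 6.64 in 4. Averaged by rat, it was 12.5 ± 2.77 at 2 weeks and 5.29 ± 0.709 at 8 weeks (SD, n = 4 rats), with a two-sided exact permutation p of 0.0286, the smallest that 4 against 4 allows, and 0.114 after adjustment over 4 ratios. With at least 5 cells a library the 8-week group held 3 rats, and the exact permutation p was 0.0571. This ratio was tested after its values were seen. Beta-globin as a whole (Hbb and LOC100134871) over Hba-a2 and Hba-a3, in mean CPM over all cells, overlapped between the times, at 1.24 to 2.05 in the libraries of 2 weeks and 1.17 to 1.62 in those of 8 weeks. The ratios of Ahsp (1.5004 ± 1.18 and 3.49 ± 2.97 per 100 Hba-a2 UMIs), Alas2 (0.472 ± 0.141 and 0.471 ± 0.209) and Hba-a3 (1.09 ± 0.303 and 0.722 ± 0.442) overlapped between the times, with exact permutation p of 0.286, 1 and 0.229. A UMI of Alas2 or Ahsp was part of the rule that chose these cells, so nothing is drawn from the tests of their ratios. The Ahsp mean at 8 weeks also includes a ratio of 13.5 from 2 cells in CON rat 8. Hba-a2 was counted in part in steps of 0.5, and whether a split of reads between copies differed between the times was not tested. The 2 time points are also different rats.

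The granulocyte genes were set against S100a8 in the same way, in the 6 libraries with at least 100 S100a8 UMIs in both sets of cells. S100a9 UMIs per 100 S100a8 UMIs in the other cells were 0.8293 to 1.301 times the value in the co-expressing cells of the same library (median 1.09), and those of Camp 0.898 to 1.57 times (median 1.04). Ngp was more often below, at 0.213 to 1.27 times (median 0.715), lowest in LDP rat 5. Lcn2 was above in each library, at 3.60 to 58.7 times (median 12.5), highest in LDP rat 7. Its UMIs in the other cells were therefore out of the proportion that the granulocyte cells had.

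These Lcn2 UMIs lay in IVD and endothelial cells more than in immune cells. In IVD cells outside the co-expressing sets, Lcn2 stood at 11.3, 6.48, 2.85 and 6.39 CPM in CON and 13.2, 13.8, 6.07 and 14.3 CPM in LDP at 2 weeks. At 8 weeks it stood at 19.1, 23.1, 28.9 and 14.8 CPM in CON and 19.6, 34.8, 131 and 48.7 CPM in LDP. Every 8-week library was above every 2-week library of its condition, and the LDP library was above the CON library in each of the 8 rats. Endothelial cells outside these sets held 22.5, 12.1, 6.90 and 10.9 CPM in CON and 14.7, 10.97, 10.5 and 12.7 CPM in LDP at 2 weeks, and 13.6, 159, 40.6 and 4.04 CPM in LDP at 8 weeks, where rat 6 had only 55 of them. No endothelial class was named in CON at 8 weeks. Endothelial and IVD ranges thus overlapped in each of these 3 groups. Lymphoid cells had group means of 0 to 5.08 CPM and myeloid cells of 0.837 to 2.86 CPM, against 6.74 to 58.6 CPM in IVD cells, and unnamed cells had 3.24 to 13.4 CPM. The share of these IVD cells with an Lcn2 UMI at 1000 UMIs per cell was 0.659, 1.09, 1.84 and 4.70% in the order CON and LDP at 2 weeks, CON and LDP at 8 weeks (2.59, 5.24, 7.65 and 18.0% at full depth). In endothelial cells at 1000 UMIs it was 1.26 and 1.46% in CON and LDP at 2 weeks and 2.89% in LDP at 8 weeks. In lymphoid cells it was at most 0.386%, with median depths of 1319 to 5296 UMIs in lymphoid and 4226 to 9889 in IVD cells. In LDP rat 7 the IVD share at 1000 UMIs was 10.0%.

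**Figure D4:**
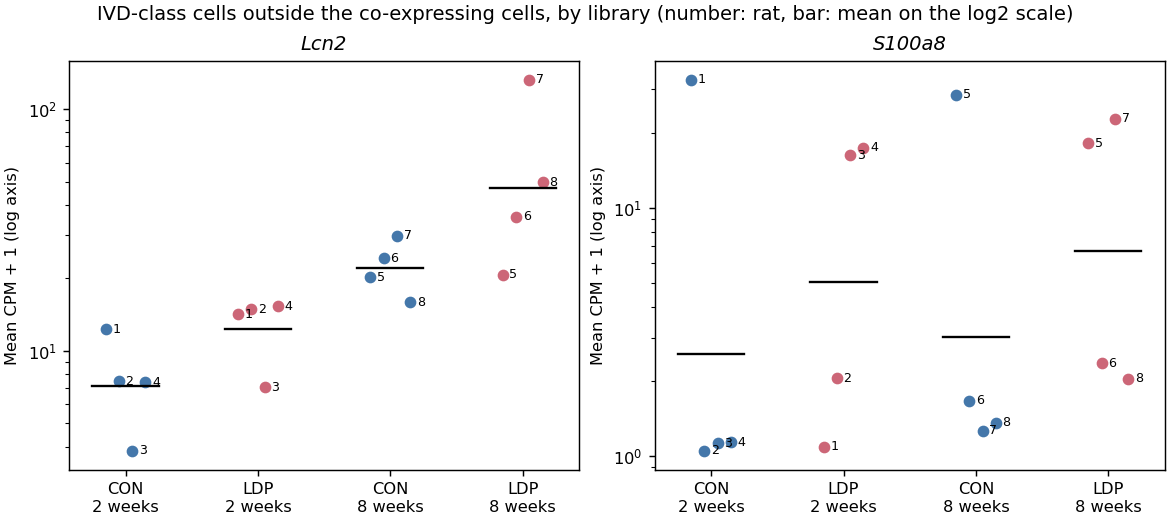
Mean CPM + 1 (log axis) of Lcn2 (left) and S100a8 (right) in IVD cells outside the co-expressing sets, by library, with the rat number beside each point and a bar at the mean of the log2 values. Lcn2 lies between 2.85 and 14.3 CPM at 2 weeks and between 14.8 and 131 CPM at 8 weeks, while S100a8 in the same cells lies between 0.0489 and 31.8 CPM at 2 weeks and between 0.265 and 27.5 CPM at 8 weeks.

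Lcn2 was the only member past the threshold in any fit between time points. Over all cells, none of the 10 members passed for 8 against 2 weeks in CON (background 1.54% of genes higher and 3.77% lower) or in LDP (1.34% and 3.39%), and none reached an unadjusted p under 0.05 (8.23% and 12.7% of genes in CON, 7.83% and 13.1% in LDP). In the fit of IVD cells alone Lcn2 was higher at 8 weeks by 1.62 on the log2 scale in CON (SE 0.45, 3.07-fold, adjusted p 0.0374 by limma) and by 1.87 in LDP (SE 0.45, 3.66-fold, adjusted p 0.0128). In that fit 3.56% and 4.48% of 11572 genes were called higher. Without the co-expressing cells as well, the adjusted p were 0.0390 and 0.0111. The LDP call was kept without each rat in turn (adjusted p 0.00637 to 0.0379), whereas the CON call was lost without rat 2, 3, 4, 6 or 8 (adjusted p 0.0547 to 0.136). LDP against CON for Lcn2 within IVD cells was 0.83 at 2 weeks (adjusted p 0.366 by limma) and 1.08 at 8 weeks (adjusted p 0.1247). Time compares different rats that also differ in age, and the IVD class was drawn separately in each group, without an endothelial class in CON at 8 weeks. These cannot be told apart from time. Among the other erythroid genes, Aqp1, the water channel of red cells and of endothelium, was lower at 8 weeks in LDP over all cells (log2 −1.94, adjusted p 0.0112 by limma), and no other gene of the erythroid or granulocyte list passed in either time comparison.

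Across libraries the correlations between the 2 lineages were positive, and none passed after adjustment. As a description over 16 libraries, which share rats and scaling, Pearson r of log2 levels ran from 0.822 to 0.968 for the 10 pairs of erythroid members (median 0.902), from 0.852 to 0.998 for the granulocyte pairs (median 0.925) and from 0.401 to 0.722 for the 25 pairs between lineages (median 0.610). A level for each lineage was taken as the mean of its 5 log2 levels. Over the 8 CON libraries r was 0.688 (exact permutation p = 0.0554) and Spearman's rho 0.619 (p = 0.115). Over the 8 LDP libraries r was 0.697 (exact permutation p = 0.0590) and rho 0.619 (p = 0.115). For the difference LDP minus CON of the 8 rats r was 0.711 (exact permutation p = 0.0483) and rho 0.762 (p = 0.0368), with both differences of the same sign in 6 of 8 rats. After adjustment over the 3 relations none passed (0.0590 for r and 0.110 to 0.115 for rho). Without the 2 rats farthest from the median erythroid level, r was 0.664 (exact permutation p = 0.167, without rats 5 and 6) in CON, 0.498 (p = 0.314, without rats 1 and 4) in LDP and 0.452 (p = 0.357, without rats 1 and 4) for the difference, so the last rests on those rats. Rats of 1 time point were too few for a value of their own.

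**Figure D5:**
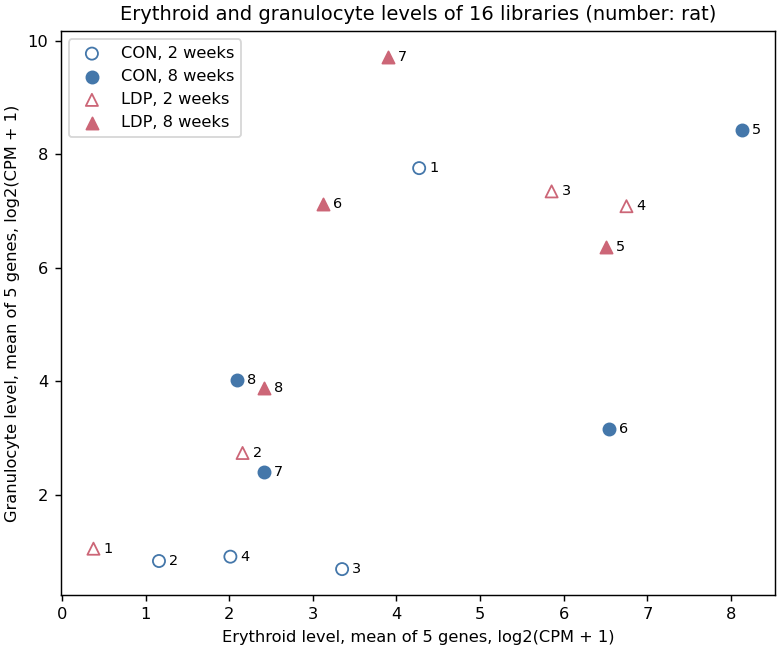
Erythroid against granulocyte level of the 16 libraries, each the mean over 5 genes of log2(mean CPM + 1), with circles for CON, triangles for LDP, open symbols for 2 weeks, filled symbols for 8 weeks and the rat number beside each. CON rat 5 is high in both, LDP rat 1 and CON rat 2 are low in both, and CON rat 6 lies apart with a high erythroid and a low granulocyte level.

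The genes most like the erythroid level across the 16 libraries, among 12189 genes outside the members, were Lgals5 (r = 0.982, up to 36.7 CPM), Cenpw (0.967), LOC103694857 (0.964), LOC100134871 (0.962) and Tk1 (0.9495). Lgals5 is a rat galectin of reticulocytes, Cenpw a centromere protein, Tk1 the thymidine kinase of dividing cells, and LOC100134871 the beta-globin neighbour of Hbb, which ranged from 1.69 to 10309 CPM. Those most like the granulocyte level were LOC24906 (0.956), which RefSeq names Lypd8l1, Cd177 (0.945), a neutrophil surface protein, Serpinb1a (0.945), an inhibitor of neutrophil proteases, Serpinb10 (0.940) and Napsa (0.940), an aspartic protease.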

How the data were processed

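Single-cell 3′ RNA libraries (10x Genomics v3.1) of CON and LDP discs from 8 rats were processed by the authors in Partek Flow on the rn6 build, per the submitters' processing notes; the aligner is not given in the sources used here. Their filter asked for 500 to 3000 genes, 500 to 30000 UMIs and less than 10% mitochondrial features in a cell. The deposited gene values are log2(CPM + 1) per cell. The deposited total of each cell is an expected count, and the percentages of mitochondrial and ribosomal reads and the count of expressed genes were computed by the authors. The class labels are theirs, with Chondrocyte, Macrophage, Immune cells and N/A read here as IVD, myeloid, lymphoid and unnamed. The deposited genes differ between groups, and only genes listed in all 4 groups were fitted.

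UMIs were recovered from each cell's total. Mean CPM per library was fitted as log2(mean CPM + 1) by limma 3.58.1 (R 4.3.3), for 12199 genes with at least 1 CPM in at least 4 libraries, with the rat as block for LDP against CON and 4 group means for time, and Benjamini-Hochberg adjustment over all genes at 0.05. The number of a rat marks 1 animal, so the CON and LDP libraries are paired. Correlations of their deviations from the group means were −0.586, 0.277, −0.192, −0.261, 0.0891, 0.413, −0.114 and 0.611 for rats 1 to 8. The fit was tested on simulated data with 200 changed genes. Shares of cells were compared by exact permutation over 70 splits or 16 sign flips. A cell was co-expressing by the 1% rule of the report; thinning drew 1000 UMIs per cell and left out the 2064 shallower cells. No doublets were removed. Python 3.11.15 and scipy 1.17.1 were used.

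The named genes are the 10 members, the 6 genes of each wider list with the highest mean level in the co-expressing cells, the 5 most correlated with each lineage's level, and cell type markers; some of these are not reported here. Aqp1, Prtn3, Fcnb, Ctsg and the ratios were picked after their values were seen. The members and gene lists were chosen with earlier results of these data known. Ahsp and S100a8 had no promoter entry in the reference tables.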

Additional observations from a re-analysis of the deposited data

Results flagged for a closer look

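In 48 groups of 4 libraries, the highest or lowest library was compared with its nearest neighbour by Dixon's test at its 95% critical value for the gap divided by the range. Chance alone marks about 1 in 20 such groups, and neither genes nor shares are independent of each other, so the 7 results below are fewer observations than their number. In CON at 2 weeks, rat 1 stood apart as the highest for 4 granulocyte genes, with log2(mean CPM + 1) of 9.17 for S100a8, 9.46 for S100a9, 7.05 for Camp and 7.01 for Ngp, while the nearest library was at 0.30, 0.44, 0.63 and 0.43. Its share of granulocyte co-expressing cells, 0.916%, stood apart in the same way, as the other 3 libraries had none. In CON at 8 weeks the share in rat 5, 1.72%, stood apart from the next, 0.0465%. In LDP at 8 weeks the share in rat 7, 2.38%, stood apart from the next, 0.405%. No erythroid gene or share was marked in any group.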

How the results depend on the processing

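No member passed the threshold in the comparisons of LDP with CON, or in the difference of the LDP effects, under another pseudocount (0.1 or 10 CPM), no limit on low values, pooled counts, IVD cells alone, no co-expressing cells, no replicate block or each rat left out (0 in each). With no replicate block the fitted values were the same, for Hba-a2 0.50 at 2 weeks and −0.59 at 8 weeks, and no call of a member changed. Between times, the number of members past the threshold went from 0 to 1, Lcn2, in IVD cells alone in CON and LDP, in IVD cells without co-expressing cells in both, and without co-expressing cells in LDP only. In IVD cells with each rat left out it was 0 to 1 in CON and 1 in each case in LDP. The fits of IVD cells without co-expressing cells and with rats left out were chosen after seeing the data. Directions turned for some differences that were not called. At 2 weeks Hba-a2 was −0.19 in IVD cells and −0.53 without co-expressing cells, and Hba-a3 was −0.071 with a pseudocount of 0.1 and −0.30 without co-expressing cells. At 8 weeks Hba-a3 was 0.11 and Ngp −0.15 in IVD cells, and 0.20 and −0.057 without co-expressing cells. Alas2 could not be fitted there, being under the limit on low values. With each rat left out, Hba-a2 ranged from −1.20 to 3.24, Hba-a3 from −0.73 to 1.20 and Hbb from −0.085 to 3.26 at 2 weeks, and from −1.26 to 0.33, −0.98 to 0.80 and −1.63 to 0.10 at 8 weeks. The difference in granulocyte share ranged from −0.151 to 0.367 percentage points at 2 weeks and from −0.341 to 0.908 at 8 weeks, with −0.0889 without rat 4 at 2 weeks. The erythroid share ranged from 0.129 to 0.872 and from −1.65 to −0.318. Limits of 0.5 or 5%, no second gene and thinning changed no direction of a share. Genes called over the whole table, for scale, went from 188 higher and 460 lower to 412 and 519 in IVD cells for time in CON, and from 164 and 413 to 519 and 1146 in LDP. For LDP against CON they went from 0 and 0 to 10 and 4 at 2 weeks and from 1 and 0 to 13 and 17 at 8 weeks. The cause was not tested.

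For the relation of the lineages over 8 rats, r in CON was 0.682 with a pseudocount of 10 (exact permutation p = 0.0415) and 0.860 by shares of cells (p = 0.0225), both past 0.05 unadjusted, while r in LDP was 0.728 without Lcn2 (exact permutation p = 0.0457) but 0.04996 by shares of cells (p = 0.948). For LDP minus CON it was 0.452 without the 2 farthest rats, 0.595 with a pseudocount of 10, 0.578 by shares and 0.707 without Lcn2, with exact permutation p of 0.357, 0.119, 0.141 and 0.0501, so that the relation lost its unadjusted call under these 4 alternatives.

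Libraries with few cells limit the shares: in LDP rat 6, with 2221 cells, a count of 0 would allow up to 0.135%. With 4 rats a group, differences of several-fold in Hba-a2 or S100a8 lie within the intervals.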
